A study of Mus musculus with 12 samples.

Results

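The Hox genes are the homeobox genes of 4 chromosomal clusters that give cells their position along the body axis. Members were the rows of the count table whose symbol is Hoxa, Hoxb, Hoxc or Hoxd followed by a number, which gave 39 of 54532 genes. All 4 clusters were complete in the table, with 11 genes of HoxA, 10 of HoxB, 9 of HoxC and 9 of HoxD.

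RNA was sequenced from whole kidneys of 12 mice at 18 days of age, of the strain C57BL/6 by the labels and C57BL/6 J by the study's methods, 3 in each of 4 groups. The noncystic controls carried 1 hypomorphic RC knock-in allele of Pkd1 over an intact floxed allele, without Cre (Pkd1 RC/F, called Pkd1 RC/+), with Pkd2 +/+ (mice 19 to 21) or with Pkd2 Δ17/Δ17 (mice 22 to 24), where Δ17 is the removal of the miR-17 motif from the 3′-UTR of Pkd2. The cystic mice carried the same alleles with KspCre, which removes the floxed one (Pkd1 RC/-), and Pkd2 +/+ (mice 25 to 27) or Pkd2 Δ17/Δ17 (mice 28 to 30). The RC and floxed alleles were therefore shared by all 4 groups, and KspCre acts in tubule epithelium and not in every kidney cell.

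Within a cluster the genes are numbered by position, and genes of the same number in different clusters are paralogs with closely related homeodomains. Low-numbered genes are switched on early and anteriorly in the embryo, high-numbered genes later and posteriorly, and Polycomb and trithorax complexes keep these states in later life. The Hox11 paralogs, together with Eya1 and Pax2, switch on Six2 and Gdnf in the nephron progenitors, the Hox10 paralogs act in the kidney stroma, and Hoxb7 marks the ureteric bud, from which the collecting duct arises.

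The clusters lie on chromosome 6 (HoxA, reverse strand, 52155590 to 52260880), chromosome 11 (HoxB, forward strand, 96194316 to 96368256), chromosome 15 (HoxC, forward strand, 102921103 to 103036852) and chromosome 2 (HoxD, forward strand, 74668310 to 74765142) of GRCm38. They span 105.3, 173.9, 115.8 and 96.8 kb. They also hold microRNA genes of 3 seed families, and 7-base seed matches to them occur in the 3′-UTRs of several Hox genes. The mature 5p sequences, and the 3p sequence of miR-615, are shown from RefSeq (GRCm38.p6) because the match counts given later rest on their seeds, bases 2 to 8, which are in capitals. miR-17-5p is shown beside them because its motif was removed from Pkd2.
miR-196a-5p: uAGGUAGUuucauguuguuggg
miR-196b-5p: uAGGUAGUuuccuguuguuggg
miR-10a-5p: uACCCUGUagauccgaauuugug
miR-10b-5p: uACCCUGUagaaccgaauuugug
miR-615-5p: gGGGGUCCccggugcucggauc
miR-615-3p: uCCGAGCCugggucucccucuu
miR-17-5p: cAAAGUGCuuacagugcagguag
The genes are Mir196a-1 (chromosome 11, mature 5p at 96265187 to 96265208, between Hoxb13 and Hoxb9), Mir196a-2 (chromosome 15, 102973365 to 102973386, between Hoxc10 and Hoxc9), Mir196b (chromosome 6, 52230129 to 52230150, under an exon of Hoxa9), Mir10a (chromosome 11, 96317186 to 96317208, between Hoxb5 and Hoxb4), Mir10b (chromosome 2, 74726074 to 74726096, within the spans of Hoxd3 and Hoxd4) and Mir615 (chromosome 15, 103014926 to 103014947, within the span of Hoxc5). Mir17 lies outside the clusters, on chromosome 14 (115043684 to 115043706).

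Total counts ran from 18800307 to 24453033 per mouse, and Hox genes took 0.106 to 0.113% of them in noncystic and 0.121 to 0.136% in cystic mice, without overlap. This share is taken against library totals and so is not corrected for the composition of the libraries. Markers of kidney epithelium were present in every mouse: the proximal tubule phosphate transporter Slc34a1 stood at 1263 to 5209 CPM (read counts scaled to the TMM-adjusted size of each library), the thick ascending limb protein Umod at 638 to 1370 CPM and the collecting duct water channel Aqp2 at 335 to 1395 CPM. Pkd2 stood at 194 to 219 and 213 to 233 CPM in the noncystic and cystic Pkd2 +/+ groups and at 271 to 286 and 307 to 336.5 CPM in the Δ17/Δ17 groups, without overlap between the genotypes. The Pkd2 difference passed the test in cystic mice (log2 0.53, adjusted p = 0.00250) and not in noncystic mice (0.40, adjusted p = 0.771). Pkd1 stood at 50.4 to 65.7 CPM in noncystic and 66.0 to 76.4 CPM in cystic Pkd2 +/+ mice, which did not pass the test (adjusted p = 0.0776), and a count over the whole gene in the whole kidney does not check the floxed allele in the cells with Cre. The summed level of 6 adrenal gland markers was 445 CPM in mouse 30 and 63.6 CPM in mouse 27, against 3.998 to 7.20 CPM in the other 10 mice. The counts of called members are therefore also given without both of these mice, an alternative added after the data were seen.

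Summed over the clusters, Hox expression in the kidney lay mostly in paralog groups 6 to 10 and was near 0 in groups 12 and 13. On the RPKM scale (CPM per kilobase of exon, which allows levels of different genes to be compared), 28 of 39 Hox genes had a median of at least 1 over the 12 mice. Paralog groups 8 to 10 held 61.5 to 66.6% of all Hox RPKM per mouse, and groups 6 to 10 held 84.3 to 88.1%. Groups 12 and 13, which pattern the genital and distal limb region, held at most 0.0514%.

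**Figure D1:**
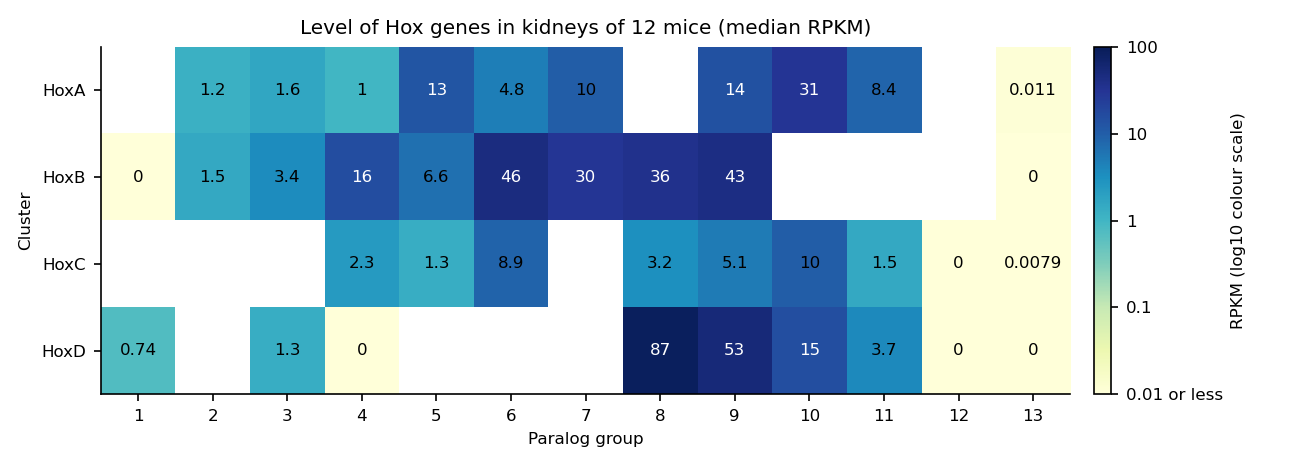
Median RPKM over 12 mice for the Hox genes, by cluster (rows) and paralog group (columns), with colour on a log10 scale and white cells where no gene is shown. Levels reach 87.0 at Hoxd8 and are near 0 in groups 12 and 13.

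Hoxd8 had the highest median level, at 87.0 RPKM and a range of 69.3 to 94.2 over the mice. Its neighbour Hoxd9 followed at 52.6 RPKM (48.1 to 63.1), so that the ranges of this pair did not overlap. Hoxb6 (46.3 RPKM), Hoxb9 (42.9), Hoxb8 (35.9), Hoxa10 (30.8) and Hoxb7 (29.7) came next, with ranges that overlapped from each to the next. The highest median of a HoxC gene was that of Hoxc10 at 10.05 RPKM (7.34 to 12.2). Paralogs could differ widely: Hoxa6 stood at 4.77 and Hoxc6 at 8.88 RPKM against 46.3 for Hoxb6.

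The middle of the range was held by Hoxb4 (15.6 RPKM), Hoxd10 (14.96), Hoxa9 (13.8), Hoxa5 (12.7), Hoxa7 (10.2), Hoxa11 (8.44), Hoxb5 (6.55), Hoxc9 (5.05), Hoxd11 (3.70), Hoxb3 (3.45), Hoxc8 (3.19) and Hoxc4 (2.32). Hoxa3, Hoxc11, Hoxb2, Hoxc5, Hoxd3 and Hoxa2 lay between 1.60 and 1.16 RPKM, and Hoxa4 at 0.999 and Hoxd1 at 0.739 RPKM were below 1. Too few reads to be tested were found for 6 genes: Hoxd4 had 0 reads in 12 mice, Hoxb1 1, Hoxc12 3, Hoxd12 4, Hoxb13 6 and Hoxd13 6. Hoxa13 (22 reads) and Hoxc13 (13 reads) passed the filter on low counts.

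Some of these levels are limited by overlapping genes. In the annotation, exons of 235 genes lie wholly under exons of opposite-strand genes, and 3 of those genes had any read, the pattern left by counting without strand and dropping reads that touch several genes. The share of exon bases free of another gene was 37.2% for Hoxd3, 47.1% for Hoxb3, 47.7% for Hoxd4, 65.0% for Hoxa11, 72.7% for Hoxb2 and 72.9% for Hoxa3, and under such counting the RPKM of these genes is too low. It was 79.6% for Hoxa7 and 100% for Hoxb4, Hoxb6 to Hoxb9, Hoxa5, Hoxc6, Hoxd1, Hoxd8 and Hoxd9. With the free exon length in place of the full length, 29 genes instead of 28 reached 1 RPKM.

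The first comparison asks how Hox genes differed between cystic and noncystic kidneys with normal Pkd2. In cystic kidneys all HoxB genes that were called stood higher, and all HoxA and HoxC genes that were called stood lower. Of 33 tested members, 16 passed the threshold (edgeR's quasi-likelihood test, Benjamini-Hochberg adjusted p under 0.05), 8 higher and 8 lower, which is 48.5% against 31.1% of all 24642 genes tested (16.9% higher and 14.2% lower). By cluster, 6 of 8 tested HoxB genes rose and 0 fell, 4 of 11 HoxA genes fell and 0 rose, 3 of 8 HoxC genes fell and 0 rose, and 2 of 6 HoxD genes rose and 1 fell. The median log2 fold change was 0.56 in HoxB, -0.38 in HoxA, -0.32 in HoxC and 0.09 in HoxD, against 0.02 over all genes. The groups did not overlap for 19 of 33 members (41.7% of all genes), 8 of them higher (22% of all genes) and 11 lower (19.7%). In bulk kidney, fewer cells of a type and less RNA per cell cannot be told apart.

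The size of these changes, and which genes pass the threshold, depend in part on the scaling of the libraries. With library totals in place of TMM factors the median of all genes moves up by 0.16 on the log2 scale. The Hox genes called with TMM factors kept their direction, while Hoxa2, which was not called, went from -0.11 to 0.05. Of 33 Hox genes 15 were then called, 10 higher and 5 lower, beside 8719 of all 24642 genes (7665 with TMM factors). Hoxb5 and Hoxd9 then passed the threshold as higher, and Hoxc5, Hoxc9 and Hoxd10 no longer passed it. The study's test, limma-trend with library totals, called 14 Hox genes, 10 higher and 4 lower, beside 8829 of all 24642 genes. It gained the same Hoxb5 and Hoxd9 and lost Hoxa13, Hoxc5, Hoxc9 and Hoxd10. Without mice 27 and 30, 12 of 33 were called, 6 higher and 6 lower, beside 6543 of all 24533 genes tested. Hoxa13, Hoxb2, Hoxc9 and Hoxd1 were lost.

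**Figure D2:**
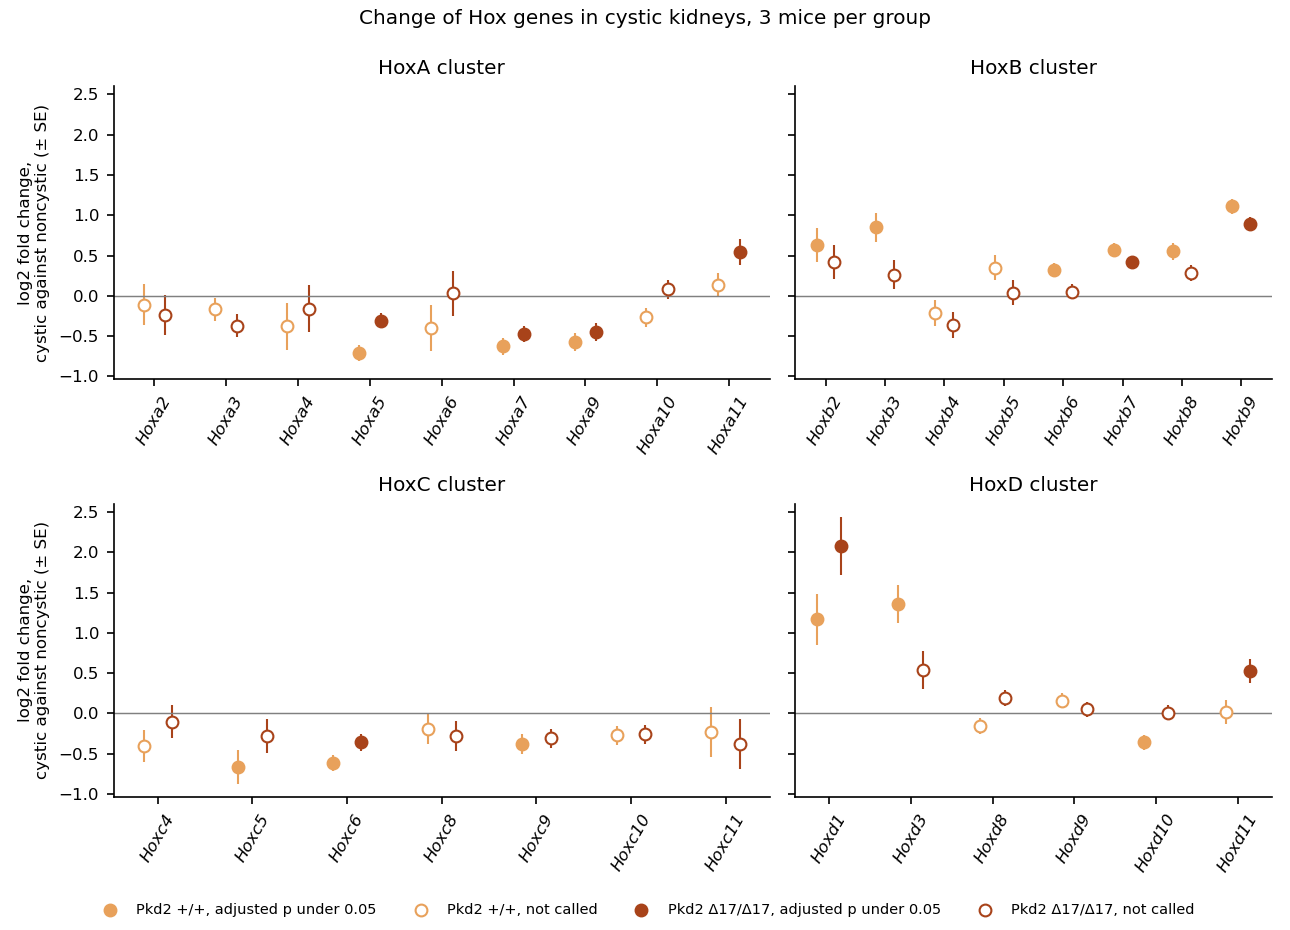
Log2 fold change (± SE) of cystic against noncystic kidneys for tested Hox genes in cluster order, in Pkd2 +/+ mice (light) and Pkd2 Δ17/Δ17 mice (dark), with filled points for an adjusted p under 0.05. Hoxa13 and Hoxc13, with 22 and 13 reads, are left out. The HoxB points lie above 0 except for Hoxb4, and the called HoxA points lie below 0 except for Hoxa11.

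Hoxb9 changed most clearly. Its level was 88.6, 85.1 and 79.1 CPM in the noncystic Pkd2 +/+ mice and 191, 176 and 178 CPM in the cystic ones, so that every cystic value was above every noncystic one. The log2 fold change was 1.11 (SE 0.09, adjusted p = 2.19e-07), or 2.15-fold. In the noncystic Δ17/Δ17 mice it stood at 86.1, 87.0 and 79.3 CPM and in the cystic ones at 132, 159 and 176.5 CPM, again without overlap. Hoxb9 acts with its paralogs in patterning of the trunk and ribs.

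Hoxb7, the ureteric bud marker, stood at 40.7, 42.1 and 37.5 CPM in noncystic and at 60.1, 61.4 and 57.2 CPM in cystic Pkd2 +/+ kidneys. All cystic values were higher, by 1.49-fold (log2 0.57, SE 0.08, adjusted p = 1.94e-05). Its levels in Δ17/Δ17 mice were 39.6, 35.9 and 38.9 CPM without cysts and 49.8, 52.0 and 50.8 CPM with them. The spread within a group was small beside this gap.

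Hoxb8 was at 81.7, 94.3 and 87.8 CPM in noncystic and 123, 120.5 and 141 CPM in cystic Pkd2 +/+ kidneys (log2 0.55, SE 0.10, adjusted p = 0.000427). In Δ17/Δ17 mice its noncystic values of 84.6, 81.1 and 95.1 CPM overlapped with cystic values of 89.6, 113 and 114 CPM. Mouse 28 was the low cystic mouse there. Hoxb6, the HoxB gene with the highest median RPKM over the 12 mice, stood at 82.7, 86.0 and 80.3 CPM without and 108, 96.3 and 106 CPM with cysts in Pkd2 +/+ mice (log2 0.32, SE 0.09, adjusted p = 0.0142), and at 81.2, 84.7 and 98.1 against 78.7, 95.9 and 98.4 CPM in Δ17/Δ17 mice, where the groups overlapped. Without mouse 21 the Hoxb6 call was lost (adjusted p = 0.0689, with a range from 0.000796 to 0.0689 over the alternatives).

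Hoxb3 stood at 13.9, 8.55 and 12.3 CPM in noncystic and 25.3, 17.3 and 19.9 CPM in cystic Pkd2 +/+ kidneys (log2 0.85, SE 0.18, adjusted p = 0.00126). Its Δ17/Δ17 values were 11.2, 14.5 and 14.7 CPM without and 16.7, 16.97 and 14.6 CPM with cysts, which overlap. Hoxb2 rose by 0.63 (SE 0.21, adjusted p = 0.0287), and that call was lost without mouse 20, 21, 26 or 27 (adjusted p from 0.00749 to 0.129 over the alternatives). Hoxb2 and Hoxb3 share exons with the antisense gene Hoxb3os, which was not called (log2 -0.22, adjusted p = 0.478), and reads from the shared exons could not be assigned. Hoxb4 (log2 -0.21, adjusted p = 0.364) and Hoxb5 (0.35, adjusted p = 0.123) were not called.

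**Figure D3:**
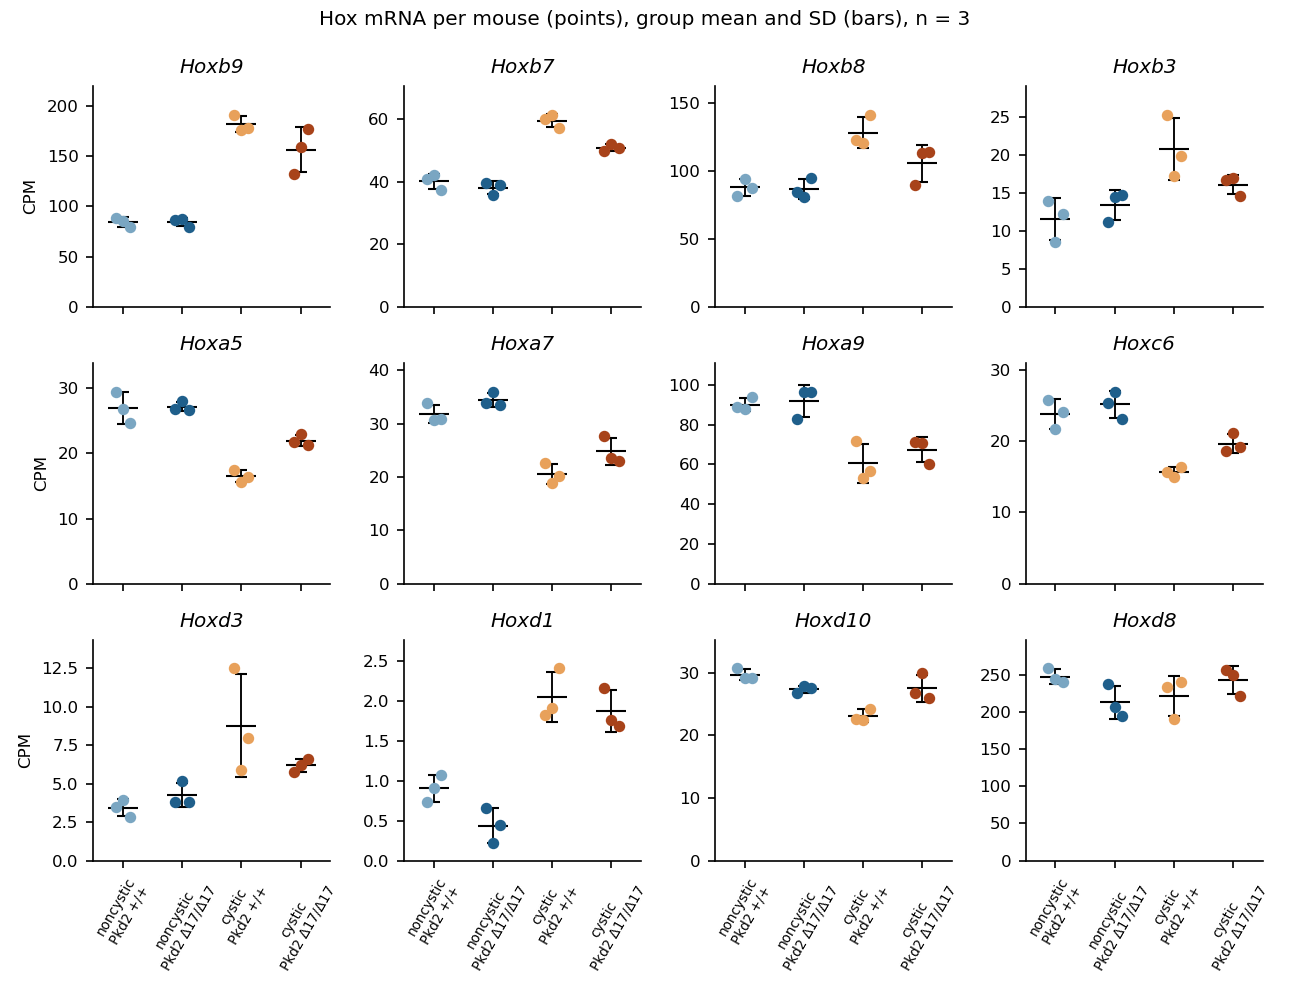
CPM of 12 Hox genes in each of 12 mice (points) by group, with group mean and SD (bars, n = 3). The 3 cystic Pkd2 +/+ mice lie above the noncystic ones for Hoxb9 (176 to 191 against 79.1 to 88.6 CPM) and below them for Hoxa5 (15.7 to 17.5 against 24.6 to 29.5 CPM).

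In the HoxA cluster the changes ran the other way. Hoxa5, which patterns lung and gut mesenchyme, stood at 29.5, 26.9 and 24.6 CPM in noncystic and at 17.5, 15.7 and 16.3 CPM in cystic Pkd2 +/+ kidneys (log2 -0.71, SE 0.10, adjusted p = 2.18e-05). Hoxa7 stood at 33.8, 30.7 and 30.8 CPM against 22.7, 18.9 and 20.1 CPM (log2 -0.63, SE 0.10, adjusted p = 0.000117). Hoxa9 stood at 88.7, 87.6 and 93.6 CPM against 71.7, 53.4 and 56.5 CPM (log2 -0.57, SE 0.11, adjusted p = 0.000456). In none of these genes did a cystic mouse reach the lowest noncystic one, although mouse 25 was closest in Hoxa9.

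In Δ17/Δ17 mice these genes also stood lower with cysts. Hoxa5 was at 26.9, 28.04 and 26.7 CPM in noncystic and 21.7, 22.9 and 21.3 CPM in cystic kidneys, Hoxa7 at 33.95, 36.0 and 33.5 against 27.7, 23.6 and 23.04 CPM, and Hoxa9 at 82.7, 96.4 and 96.5 against 71.4, 70.8 and 60.03 CPM. The groups did not overlap for any of them. Exons of Hoxa7 are in part shared with the antisense gene Hoxaas3, and a small part of Hoxa9 with Mir196b, which had 0 reads.

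Hoxa13 had 10 reads over the noncystic and 0 over the cystic Pkd2 +/+ mice, and mouse 19 of the noncystic group also had 0. With a floor of 3 reads over the cystic group this is 3.98-fold lower. The error of the 10 noncystic reads is not included. Its adjusted p of 0.0448 lay between 0.0183 and 0.143 in the alternatives, and 8 of 19 of them called it; the call was lost without mouse 20, 21, 23, 24, 25, 26 or 27. Other HoxA genes that were not called were Hoxa2 (log2 -0.11), Hoxa3 (-0.17), Hoxa4 (-0.38), Hoxa6 (-0.40), Hoxa10 (-0.27) and Hoxa11 (0.13). Hoxa10, the HoxA gene with the highest median RPKM and one of the stromal Hox10 paralogs, was at 111, 113 and 102 CPM without and 76.0, 99.4 and 93.8 CPM with cysts, lower in every cystic mouse but with an adjusted p of 0.0941. In Δ17/Δ17 mice it stood at 109, 85.2 and 104 against 123, 98.7 and 93.5 CPM.

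Of the HoxC genes, Hoxc5, Hoxc6 and Hoxc9 were called. Hoxc6 was at 25.8, 21.7 and 24.1 CPM in noncystic and 15.7, 14.98 and 16.3 CPM in cystic Pkd2 +/+ kidneys (log2 -0.61, SE 0.10, adjusted p = 0.000213), with no overlap. Its Δ17/Δ17 levels were 25.3, 26.95 and 23.2 against 18.6, 21.1 and 19.1 CPM. Hoxc5 (-0.66, adjusted p = 0.0244) and Hoxc9 (-0.38, adjusted p = 0.0240) were called as lower, and the 2 calls were lost with library totals (adjusted p = 0.0807 and 0.181, with ranges of 0.01002 to 0.151 and 0.00720 to 0.181).

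Both HoxC calls also depended on single mice, since Hoxc5 was lost without mouse 19 or 26 and Hoxc9 without mouse 19, 20 or 26. Hoxc10, the HoxC gene with the highest median RPKM over the 12 mice, stood at 19.3, 20.01 and 19.99 CPM against 14.01, 17.2 and 17.9 CPM, lower in every cystic mouse, but was not called (log2 -0.27, adjusted p = 0.109). Its Δ17/Δ17 levels were 20.8, 19.04 and 23.3 CPM without and 17.2, 19.9 and 15.8 CPM with cysts. Hoxc4 (-0.40), Hoxc8 (-0.19), Hoxc11 (-0.23) and Hoxc13 (0.56) were not called either.

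In HoxD, Hoxd1 rose from 0.727, 0.912 and 1.07 CPM to 1.82, 1.91 and 2.40 CPM (log2 1.17, SE 0.32, adjusted p = 0.00997), and Hoxd3 from 3.48, 3.93 and 2.85 CPM to 12.5, 5.87 and 7.96 CPM (log2 1.36, SE 0.24, adjusted p = 0.000350). Neither overlapped between the groups, and mouse 25 had the highest Hoxd3. In Δ17/Δ17 mice Hoxd1 stood at 0.654, 0.218 and 0.440 CPM without and 2.16, 1.76 and 1.68 CPM with cysts, and Hoxd3 at 3.81, 5.18 and 3.80 against 5.77, 6.21 and 6.59 CPM.

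Hoxd10, at 30.7, 29.2 and 29.1 CPM in noncystic and 22.6, 22.4 and 24.3 CPM in cystic Pkd2 +/+ kidneys, was the only HoxD gene called as lower (log2 -0.36, SE 0.09, adjusted p = 0.00410), and library totals ended that call (adjusted p = 0.0903, range 0.000383 to 0.0903). Hoxd8, the Hox gene with the highest median RPKM, stood at 258.5, 244 and 240 CPM against 233, 190 and 241 CPM and was not called (-0.16, adjusted p = 0.253). It stood at 237, 207 and 194 against 256.5, 250 and 221 CPM in Δ17/Δ17 mice. Hoxd9 (0.16) and Hoxd11 (0.02) were not called.

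Other genes inside the clusters were read beside them. Of 46, 31 were tested and 4 were called in Pkd2 +/+ mice, 12.9% against the 31.1% of all genes. Haglr, a long noncoding RNA that shares exon bases with Hoxd3, rose by 1.05 (adjusted p = 0.00555), and Gm28230, which overlaps Hoxd3 and Hoxd4, rose by 1.47 (adjusted p = 0.000654). Gm14426 rose with 0 reads in each noncystic and 2 to 4 in each cystic mouse. Hoxb5os, the antisense gene at Hoxb5, fell by 0.42 (adjusted p = 0.00724) while 6 HoxB genes rose. In Δ17/Δ17 mice 2 were called, Hoxb5os (-0.34, adjusted p = 0.0332) and Haglr (0.98, adjusted p = 0.0154), and 0 in the other contrasts. Of those that share exon bases with a tested Hox gene, Hoxaas2 and 5730596B20Rik (at Hoxa3), Gm29430 (at Hoxa3 and Hoxa4), Hoxaas3 (at Hoxa3 and Hoxa7), Hoxa11os (at Hoxa11), Hoxb3os (at Hoxb2 and Hoxb3), Gm28309 (at Hoxd10 and Hoxd11) and Hoxd3os1 (at Hoxd3) were not called, and Gm28308 (at Hoxa2 and Hoxa3) and Mir196b had 0 reads. Hoxc5 and Hoxc10 also share exon bases with each other.

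The second comparison is the same contrast in Δ17/Δ17 mice, which are other animals. Here 9 of 33 members were called, 5 higher and 4 lower, which is 27.3% against 23% of all genes (12.8% higher and 10.2% lower). Higher were Hoxb9 (0.89, SE 0.09, adjusted p = 4.94e-06), Hoxb7 (0.42, adjusted p = 0.000661), Hoxd1 (2.08, SE 0.36, adjusted p = 0.000381), Hoxd11 (0.53, adjusted p = 0.0151) and Hoxa11 (0.54, adjusted p = 0.0182). Lower were Hoxa7 (-0.48, adjusted p = 0.00193), Hoxa9 (-0.45, adjusted p = 0.00482), Hoxc6 (-0.36, adjusted p = 0.0175) and Hoxa5 (-0.31, adjusted p = 0.0257). The groups did not overlap for 13 members (37.9% of all genes), 6 of them higher (20.2%) and 7 lower (17.7%).

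Hoxa5, Hoxa7, Hoxa9, Hoxb7, Hoxb9, Hoxc6 and Hoxd1 were called in both Pkd2 genotypes, all with the same sign. They make up 43.75% of the 16 called in Pkd2 +/+ mice and 77.78% of the 9 called in Δ17/Δ17 mice, and over all genes these shares were 63.0% and 85.03%. Of the 16, 15 had the same sign in Δ17/Δ17 mice and Hoxd10 did not (-0.36 and 0.01). The Hox11 paralogs Hoxa11 and Hoxd11 were called only in Δ17/Δ17 mice, and their differences between genotypes were not called (interaction 0.40 and 0.51, adjusted p = 0.659 and 0.527). With library totals, which moved values up here as well (Hoxd8 from 0.19 to 0.34), 10 were called, 8 higher and 2 lower. Hoxb8, Hoxd3 and Hoxd8 were gained and Hoxa5 and Hoxc6 lost. The study's limma-trend test also lost Hoxa5 and Hoxc6, and with them Hoxa9 (adjusted p = 0.0523). Without mouse 23 the count was 5, with Hoxa5, Hoxa11, Hoxc6 and Hoxd11 lost. Without mice 27 and 30 it was 7, with Hoxa5 and Hoxc6 lost. Counts of all genes called under these alternatives are not given for this contrast, so the Hox counts cannot be set against them. Single other mice also decided some calls: Hoxa5 was lost without mouse 24, 28 or 30 (adjusted p from 0.00639 to 0.277 over the alternatives), Hoxc6 without 28 or 30 (0.00381 to 0.179), Hoxa11 without 28 (0.000609 to 0.114) and Hoxd11 without 22, 28 or 29 (0.00149 to 0.0645).

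The balance between clusters was then followed within each mouse, which does not depend on library scaling. HoxB held 34.7 to 36.1% of all Hox RPKM in noncystic and 47.6 to 48.7% in cystic Pkd2 +/+ kidneys, and 35.5 to 39.2% against 38.6 to 46.5% in Δ17/Δ17 kidneys. HoxA held 20.01 to 20.6% without and 13.4 to 15.7% with cysts in Pkd2 +/+ mice, and 20.2 to 20.9% against 16.2 to 19.8% in Δ17/Δ17 mice. HoxC held 7.59 to 8.01% against 5.05 to 5.61% and 8.25 to 8.52% against 5.96 to 6.49%. HoxD held 35.7 to 37.2% against 30.2 to 33.1%, and 31.6 to 35.7% against 31.4 to 35.3%. The noncystic and cystic ranges overlapped in Δ17/Δ17 mice for HoxB, where mouse 28 reached into the noncystic range, and for HoxD, and were separate in the others. A share depends on the other clusters too: the summed HoxD level in Pkd2 +/+ mice had medians of 164 RPKM without and 167.5 RPKM with cysts, while that of HoxA went from 91.1 to 70.8 RPKM. These values were not tested.

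The 8 tested HoxB genes, Hoxb2 to Hoxb9, were also divided by their tested paralogs in other clusters, as ratios of read counts whose change, and not level, is compared. These 15 ratios were taken up after the fold changes of the same mice were known, so they are a description and no test is given. The ratio of Hoxb9 to Hoxa9 had medians of 0.971 and 3.15 in noncystic and cystic Pkd2 +/+ mice and of 0.902 and 2.25 in Δ17/Δ17 mice, a 2.85-fold change averaged over the genotypes. That of Hoxb7 to Hoxa7 had medians of 1.22 and 2.84 and of 1.16 and 2.21, a 2.07-fold change.

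Cystic and noncystic mice were separate in both Pkd2 genotypes for 7 of the 15 ratios. Beside those of Hoxb9 to Hoxa9 and Hoxb7 to Hoxa7 they were Hoxb9 to Hoxc9 (2.53-fold), Hoxb9 to Hoxd9 (1.86-fold), Hoxb3 to Hoxa3 (1.78-fold), Hoxb2 to Hoxa2 (1.65-fold) and Hoxb8 to Hoxc8 (1.55-fold), all higher in cystic mice. For 6 ratios they were separate in Pkd2 +/+ mice alone, higher in cystic mice: Hoxb5 to Hoxa5, Hoxb5 to Hoxc5, Hoxb6 to Hoxa6, Hoxb6 to Hoxc6, Hoxb8 to Hoxd8 and Hoxb4 to Hoxc4. In Δ17/Δ17 mice the noncystic and cystic medians fell for Hoxb6 to Hoxa6 (22.9 and 16.3) and for Hoxb4 to Hoxc4 (6.98 and 5.73). The medians of the others in this set rose there. Those of Hoxb3 to Hoxd3 and Hoxb4 to Hoxa4 overlapped in both genotypes. Averaged over the genotypes, Hoxb3 to Hoxd3 was 1.285-fold lower in cystic mice and Hoxb4 to Hoxa4 changed 1.02-fold.

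**Figure D4:**
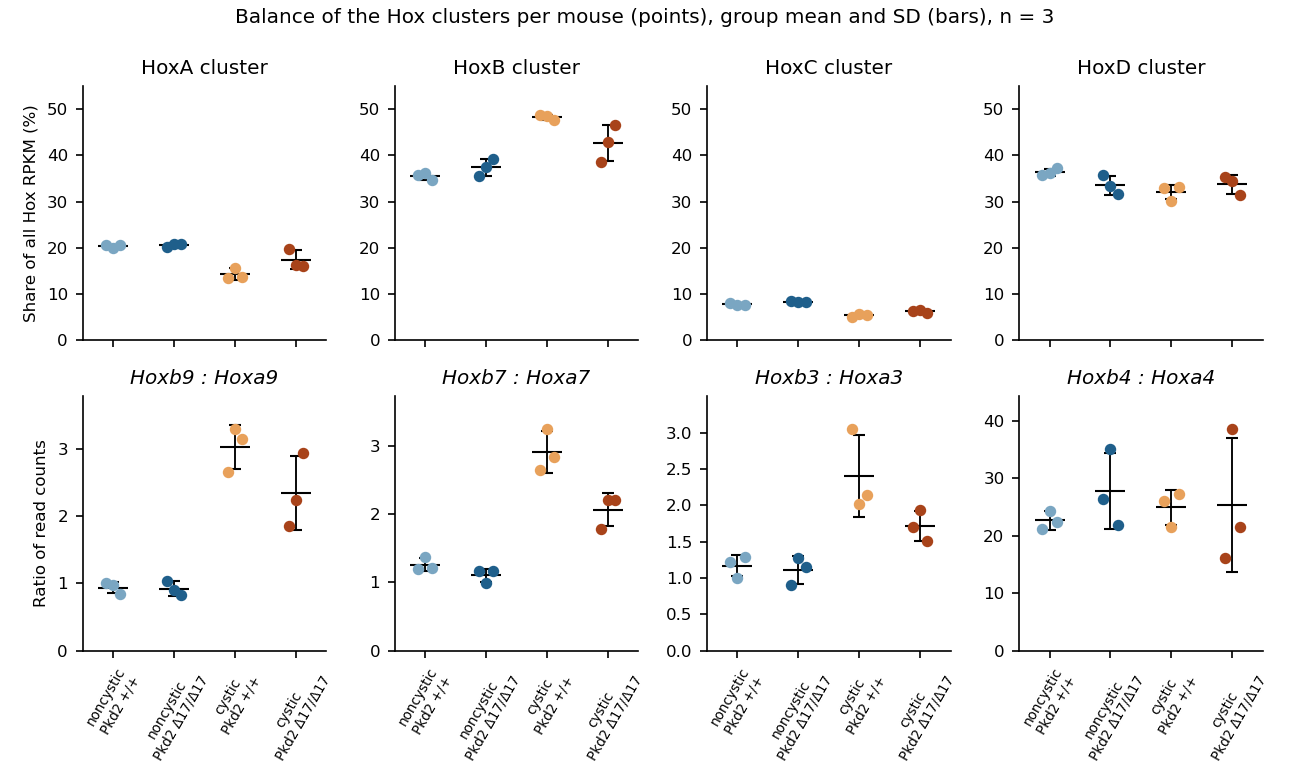
Upper row, share of each cluster in the summed Hox RPKM (percent) in each of 12 mice by group. Lower row, ratio of read counts of a HoxB gene to its HoxA paralog. Points are mice and bars are group mean and SD (n = 3). The HoxB share was 47.6 to 48.7% in cystic and 34.7 to 36.1% in noncystic Pkd2 +/+ mice, and the Hoxb4 to Hoxa4 ratio overlapped between groups.

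The third comparison asks what removal of the miR-17 motif from Pkd2 did to Hox genes. An unadjusted p under 0.05 was found in cystic kidneys for 12 of 33 members, against 14.3% of all genes. The threshold was passed by 1 of 33 members, against 2.23% of all genes (1.19% higher and 1.04% lower). Hoxa5 was higher, at 21.7, 22.9 and 21.3 CPM in Δ17/Δ17 against 17.5, 15.7 and 16.3 CPM in Pkd2 +/+ mice, without overlap (log2 0.41, SE 0.10, adjusted p = 0.0323). The call was lost when only these 2 groups were fitted, without mouse 26, 27, 28 or 29, and without mice 27 and 30 (adjusted p from 0.00441 to 0.153 over the alternatives). Its noncystic levels, 24.6 to 29.5 CPM in Pkd2 +/+ and 26.7 to 28.04 CPM in Δ17/Δ17 mice, lay above both cystic groups.

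No other member passed the threshold. Larger differences that did not pass were those of Hoxa6 (0.69, adjusted p = 0.253, without overlap), Hoxd3 (-0.51, adjusted p = 0.337), Hoxc4 (0.46, adjusted p = 0.306) and Hoxc5 (0.44, adjusted p = 0.355, without overlap), and those of Hoxa13 and Hoxc13 rest on very few reads. By cluster, the median log2 difference of Δ17/Δ17 against Pkd2 +/+ was 0.23 in HoxA, with 11 of 11 values above 0, and -0.22 in HoxB, with 1 of 8 above 0. It was 0.22 in HoxC, with 7 of 8 above 0, and 0.00 in HoxD, against 0.00 over all genes. Hoxb7 stood at -0.23 (adjusted p = 0.144), Hoxb8 at -0.28 (0.179), Hoxb9 at -0.22 (0.278), Hoxb3 at -0.37 (0.337) and Hoxc6 at 0.33 (0.125). This contrast and that of cystic against noncystic Pkd2 +/+ kidneys share the 3 cystic Pkd2 +/+ mice, so opposite signs in them are not independent. Groups did not overlap for 9 of 33 members (19% of all genes), 6 of them higher (8.79%) and 3 lower (10.2%).

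In noncystic kidneys 0 of 33 members were called for the deletion in edgeR's test, against 0.00406% of all genes, and DESeq2 also called 0. Pkd2 itself, whose genotypes did not overlap, was not called by edgeR here either (log2 0.40, SE 0.08, adjusted p = 0.771). A count of 0 therefore does not show that the Hox genes were unchanged. An unadjusted p under 0.05 was found for 4 of 33 members, against 6.31% of all genes. The groups did not overlap for 4 of 33 (10.8% of all genes), 0 of them higher (5.69%) and 4 lower (5.09%). The largest difference was that of Hoxd1, at 0.727 to 1.07 CPM in Pkd2 +/+ and 0.218 to 0.654 CPM in Δ17/Δ17 mice (log2 -1.03, SE 0.38, adjusted p = 0.771). The difference of the deletion effect between cystic and noncystic kidneys was called for 0 of 33 members by edgeR, against 0.0122% of all genes (0.00812% higher and 0.00406% lower). Its unadjusted p was under 0.05 for 6 of 33 members, against 8.33% of all genes, and DESeq2 called 0.

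Seed matches were counted in the longest annotated 3′-UTR of the 33 tested members (GENCODE M21) and of 16820 tested genes that have one. The match to miR-196 (ACTACCT, searched on the transcript strand) was found in 8 members, or 24.2%, against 7.35% of all genes. Of the 8, Hoxa5, Hoxa7 and Hoxa9 were lower and Hoxb6 and Hoxb7 higher in cystic Pkd2 +/+ kidneys, while 3, Hoxa4 and Hoxc8 among them, were not called. Hoxa7 held 4 matches, Hoxc8 2 and the other 6 genes 1 each. Members with a match thus moved in both directions.

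Hoxb8 holds no such 7-base match, but of all members it has the window with the most bases paired to miR-196a-5p. It is shown with the bases opposite the seed in capitals, beside the first match of Hoxa7, which moved the other way, and the match of Hoxb7.
Hoxb8 site: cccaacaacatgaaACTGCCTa
Hoxa7 site: ggcacagccaaaatACTACCTa
Hoxb7 site: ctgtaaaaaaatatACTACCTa
They lie in the annotated 3′-UTRs of these genes at chr11:96284888-96284909 (forward strand), chr6:52215400-52215421 (reverse strand) and chr11:96289784-96289805 (forward strand) of GRCm38. Without a gap, 21 of 22 bases of miR-196a-5p pair with the Hoxb8 site by A-U or G-C and the remaining 1 is a G-U pair, against 13 of 22 for the Hoxa7 site and 14 of 22 for the Hoxb7 site. Hoxb8 rose in cystic Pkd2 +/+ kidneys (log2 0.55), as given above. The reads counted on Mir196a-1, 1638 in all, did not differ by the test (0.22, adjusted p = 0.342), and this library of long RNA does not measure the mature microRNA.

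The miR-10 match (ACAGGGT) was found in 4 members, Hoxa3, Hoxb3 and Hoxd1 among them, or 12.1% against 14.2% of all genes, and Hoxb3 and Hoxd1 of these were higher in cystic Pkd2 +/+ kidneys. The match to miR-615-5p (GGACCCC) was found in Hoxa11, Hoxc6 and Hoxc11 (9.09% against 8.7% of all genes), of which Hoxc6 was lower in cystic Pkd2 +/+ kidneys, and that to miR-615-3p (GGCTCGG) in Hoxb4 (3.03% against 3.41%). Few reads were counted on the other microRNA genes: Mir10a had 235, Mir615 36, Mir10b 17, Mir196a-2 7 and Mir196b 0 over 12 mice.

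Genes that work with or set Hox genes were read from lists chosen for their role. Of all genes 16.9% were called as higher and 14.2% as lower in cystic Pkd2 +/+ kidneys. The list and marker counts below are to be read beside these shares and were not tested against them. Of 9 Pbx and Meis family genes, whose proteins bind DNA together with Hox proteins, 3 rose in cystic Pkd2 +/+ kidneys and 0 fell, led by Pknox2 (log2 1.09, adjusted p = 9.44e-06) and Pbx3 (0.73, adjusted p = 9.13e-05). Of 18 Polycomb genes, 6 rose and 0 fell, led by the methyltransferase Ezh2 (0.98, adjusted p = 3.08e-06) and by Cbx2 (0.81, adjusted p = 0.000117). Of 11 trithorax and demethylase genes, 4 rose and 0 fell, led by Kmt2b (0.43, adjusted p = 0.00177) and Ash2l (0.32, adjusted p = 0.00296). The medians over these lists were 0.17, 0.22 and 0.19 against 0.02 for all genes.

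Retinoic acid and the Cdx factors are known inducers of Hox genes. Cdx1, Cdx2 and Cdx4 had too few reads to be tested, and of the 13 genes of retinoic acid signalling 5 rose and 2 fell (median 0.37). Aldh1a1, which makes retinoic acid, rose by 2.39 (adjusted p = 1.38e-07) and its receptor Rara by 0.55 (adjusted p = 0.000112), while Crabp1 fell by 1.78 (adjusted p = 0.000181) and Rxra by 0.28 (adjusted p = 0.0146). Of 11 kidney partners and targets of the Hox11 proteins, 2 rose, Pax8 (0.45, adjusted p = 0.000331) and Pax2 (0.68, adjusted p = 0.000336), and 5 fell, led by Wt1 (-1.16, adjusted p = 4.33e-06) and Sall1 (-0.83, adjusted p = 5.75e-06). Wt1 is also a podocyte marker. Of 13 tested genes beside the clusters, 6 rose, led by Ttll6 (3.91, adjusted p = 2.72e-06) and Hnrnpa1 (0.74, adjusted p = 1.03e-05), and 2 fell, Hibadh (-1.17, adjusted p = 2.05e-08) and Mtx2 (-0.27, adjusted p = 0.0102).

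Cell type markers moved with the cystic state as well, and their part in the Hox results was not tested. Their calls and fold changes are for Pkd2 +/+ mice unless said otherwise, while summed levels span both Pkd2 genotypes. Of 8 collecting duct markers 5 rose, led by Hsd11b2 (1.75, adjusted p = 1.50e-07) and Scnn1b (1.26, adjusted p = 1.62e-06), and their summed level was 1011 to 1415 CPM in noncystic and 1690 to 3815 CPM in cystic mice, highest in mouse 25. All 7 macrophage markers rose, led by Mrc1 (1.89, adjusted p = 8.60e-08) and Adgre1 (1.79, adjusted p = 4.15e-07), with sums of 146 to 181 against 282 to 528 CPM. Of 10 interstitial fibroblast markers 6 rose, led by Acta2 (2.05, adjusted p = 5.07e-07) and Vim (0.86, adjusted p = 5.41e-07), and 2 fell, Pdgfra (-0.56, adjusted p = 0.00536) and Lum (-0.70, adjusted p = 0.0440), with sums of 1950 to 2478 against 3321 to 5334 CPM.

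Epithelial markers of other segments and endothelial markers mostly stood lower in cystic Pkd2 +/+ kidneys. The sums in this paragraph and the next again span both Pkd2 genotypes. All 8 proximal tubule markers fell, led by Slc13a3 (-1.42, adjusted p = 2.19e-07) and Slc22a6 (-1.08, adjusted p = 9.31e-07), with sums of 7364 to 9531 CPM without and 2816 to 5027 CPM with cysts. Of 6 thick ascending limb markers 4 fell, led by Egf (-3.07, adjusted p = 4.76e-09) and Cldn10 (-1.33, adjusted p = 7.67e-08), and Cldn16 rose (0.33, adjusted p = 0.0118), with sums of 4473 to 6158 against 1907 to 3910 CPM.

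Of 6 podocyte markers 5 fell, led by Podxl (-1.17, adjusted p = 5.54e-07) and Wt1, and Synpo rose (0.52, adjusted p = 0.000169), with sums of 595 to 718 against 340.5 to 465.5 CPM. Of 6 endothelial markers 4 fell, led by Emcn (-1.01, adjusted p = 7.16e-07) and Egfl7 (-0.64, adjusted p = 2.84e-05), with sums of 968 to 1116 against 625 to 915 CPM. Of 5 tested skeletal muscle markers 1 fell, Myl1 (-1.53, adjusted p = 0.0292), with sums of 7.10 to 14.8 CPM over all mice, and of 6 adrenal markers 0 were called by edgeR in Pkd2 +/+ and 6 as higher in Δ17/Δ17 mice, where mouse 30 carries the sum.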

How the data were processed

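RNA-seq of 12 mouse kidneys was analysed. According to the study's methods and the submitters' processing notes, the authors trimmed reads with Trim Galore 0.6.3, aligned them to GRCm38 with STAR 2.5.3a and counted reads per gene of Ensembl release 94. The authors deposited whole-number raw counts, with no normalization. In the table of 54532 genes, 343 without a name held 0.0225% of the counts, and 0 columns were left out. Lengths, overlaps and 3′-UTRs came from GENCODE M21, which holds 54495 of the identifiers.

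Counts were tested in R 4.3.3 with edgeR 4.0.16 (quasi-likelihood, TMM factors, 1 mean per group over 12 mice, 8 residual degrees of freedom) on 24642 genes, those whose mean log2CPM over the mice (prior count 2) reached -3, with Benjamini-Hochberg adjustment over all of them and a threshold of 0.05. The study used limma-trend on log2CPM, run here as an alternative (limma 3.58.1, prior count 3), beside DESeq2 1.42.0, other scalings and filters, fits of just the groups being compared, a covariate for Xist, and fits without single mice. RPKM is TMM-scaled CPM per kilobase of the union of exons. The scripts were tested on simulated data. Members, gene lists and tests were chosen with earlier results of these data known, the lists by the role of their genes; the paralog ratios and the alternative without mice 27 and 30 were added after these values were seen.

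The named genes were the Hox genes, except 1 member that is counted but not reported here. Mouse values were given for genes called for the deletion or, up to 12, with the smallest adjusted p between cystic and noncystic Pkd2 +/+ kidneys, and for the highest gene per cluster. Of each other list, the 2 genes with the smallest adjusted p per direction were named. Other genes in the clusters were named if called or if they overlap an exon of a tested Hox gene; Mir196a-1, Mir196a-2, Mir10a, Mir10b and Mir615 are named for their sequences. Mice are separate animals. With 3 per group, p-values and SEs rest on the spread between these mice as edgeR estimated it. Each SE is the absolute log2 fold change over the square root of the test's F statistic. The floor used for Hoxa13 covers counting error in the cystic group only.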

Additional observations from a re-analysis of the deposited data

Results flagged for a closer look

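For Hoxd10 the mice of the 2 Pkd2 genotypes were separate in opposite directions without and with cysts, and neither difference passed the test of edgeR. Levels were lower with the deletion in noncystic kidneys (26.7, 27.8 and 27.6 CPM against 30.7, 29.2 and 29.1 CPM, log2 -0.12, adjusted p = 0.816) and higher in cystic kidneys (26.7, 30.02 and 25.9 CPM against 22.6, 22.4 and 24.3 CPM, log2 0.25, adjusted p = 0.162). Groups without overlap were found for 10.8% and 19% of all genes in these comparisons. The difference of these changes was 0.37 on the log2 scale and did not pass the interaction test of edgeR (adjusted p = 0.405).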

How the results depend on the processing

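No paired analysis was possible because each mouse has a number of its own that no other group shares. The log2 fold changes of the Hox genes called were recomputed under 21 alternatives: of 544 values, 485 kept direction and threshold, 59 kept direction only and 0 reversed. The count for cystic against noncystic Pkd2 +/+ kidneys (16) was 13 to 16 with single mice left out. Over all genes that contrast called 6480 to 7568 with single mice left out, against 7665 in the main fit. The count for Δ17/Δ17 kidneys (9) was 5 to 10, with 5 without mouse 23. For the deletion in cystic kidneys the count of 1 became 2 with no filter on low counts or with Xist as a covariate. Hoxb8 was then added as lower. The count was 0 with the compared groups only, 0 without mice 27 and 30 and 0 to 1 with single mice left out. Over all genes this contrast called 549 in the main fit, 1639 with no filter (of 33191 tested) and 569 with Xist. It called 167 with the compared groups only, 322 without mice 27 and 30, and 118 to 861 with single mice left out. The cause was not tested. Genes at 1 RPKM or more numbered 28 to 29. Reads limit Hoxa13, Hoxc13 and the 6 untested genes, and shared exons limit Hoxb3 and Hoxd3.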
